A study of Mus musculus with 3 samples.

Results

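CXCR3- innate CD8 T cells were compared with naive CD8 T cells, with 1 array for each population, 2 of the 3 arrays of the study. The value of the naive array was subtracted from that of the CXCR3- innate array for each of 10191 genes, on the log2 scale on which the values were deposited. A gene was described as higher or lower where the arrays lay at least 1.5-fold apart, which is 0.585 on the log2 scale. By this rule 10 genes were higher in CXCR3- innate cells (0.0981% of the genes with a value) and 179 were lower (1.76%), 189 of 10191 in all. These are sizes of difference between 2 arrays: no population was replicated, so no difference could be set against a spread between replicates and no p-value was computed.

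All 3 arrays came from CXCR3-GFP reporter mice on C57BL/6, in which green fluorescent protein reports the chemokine receptor CXCR3. The mice were themselves naive and pathogen free, their age is not given in the labels, and no group was treated. Cells of spleen and lymph nodes were stained with antibodies, among them those to CD44 and CD8, and sorted into naive CD8 T cells and into those the submitters call innate, with and without CXCR3, with no gate stated for any of them. RNA was taken from about 3 to 5 mice, which one label calls CIBER mice. Whether cells or RNA of these mice were pooled for an array is not stated, and each array was treated as 1 sample of its population. In bulk RNA of this kind, fewer cells of a type and less RNA per cell cannot be told apart.

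Innate CD8 T cells carry the surface antigens of memory cells in animals that have not met the corresponding foreign antigen, and such cells are known for fast release of cytokines and chemokines. Memory-like CD8 T cells depend on interleukin-15 and on the T-box transcription factors Eomes and T-bet, whereas naive cells keep genes for lymph node homing and quiescence. Ribosome production, which runs through small nucleolar RNAs that guide the chemical modification of ribosomal RNA and through proteins of the small and large ribosomal subunits, is adjusted when T cells grow or rest.

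The genes used for the sort gave a first check of the labels. Cd44, the hyaluronan receptor that marks memory-phenotype cells, read 7.88 on the CXCR3- innate array, 7.24 on the naive array and 8.30 on the CXCR3+ innate array, which placed it 0.64 above naive, or 1.56-fold. Cxcr3 itself read 7.82 in CXCR3- innate cells against 7.57 in naive cells, a difference of 0.25 that stayed short of the 1.5-fold limit, and the CXCR3+ innate array was only slightly higher at 7.97. Cd8a, a chain of the CD8 coreceptor, read 9.77 against 10.43 in naive cells, a difference of -0.66. The other chain, Cd8b1, read 11.29 against 11.54, a difference of -0.26. The T cell marker Cd3e read 11.51 and 11.81 on these arrays. Lists of markers of other cell types held 141 entries, of which 41 distinct genes had a value. Among these only Eomes, which natural killer cells and memory CD8 T cells share, was at least 1.5-fold higher, and 0 were lower. The B cell markers Bank1 and H2-Ab1 read 7.16 to 7.21 on the CXCR3- innate array and 7.04 to 7.14 on the naive array. Most listed markers of other cell types, Lyz2 among them, had no value, so this check is narrow.

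Gene for gene, the arrays were close. Of the 10191 genes, 4288 (42.1%) had exactly the same value on both arrays, 3699 were below the naive value and 2204 were above it. A difference of 0.00 was therefore common and does not show equal expression. The table lists probe sets that reached 7.00002 on at least 1 array. A gene without a row has no value rather than a low one. The CXCR3- innate array also had the narrowest spread of values, with an SD of 0.900 over 12417 probe sets against 0.953 on the naive array and 0.928 on the CXCR3+ innate array, and its 95th percentile was 9.72 against 9.93 and 9.84. Its median, 7.68, was near the 7.71 of the naive array. When the arrays were set to one common distribution, 24 genes were higher and 98 lower, against 10 and 179 on the deposited scale. Centring on bright protein-coding genes gave 26 and 118. No gene that had been called changed direction under either.

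The genes that were higher in CXCR3- innate cells were few and included 2 chemokines, 2 T-box transcription factors and several surface receptors. Of the 10 genes, 9 were protein-coding and 1, A430093F15Rik, was a long noncoding RNA that read 7.66 against 7.01 in naive cells. Ccl5, a chemokine that memory CD8 T cells hold ready for release and that draws T cells and monocytes, stood far from all others. It read 10.85 on the CXCR3- innate array and 7.83 on the naive array, a difference of 3.02 or 8.10-fold, and the CXCR3+ innate array read 12.49. Next came Ly6c2, a GPI-anchored antigen that marks memory CD8 T cells, with 10.38 against 9.28, a 2.14-fold difference, and with 11.87 in CXCR3+ innate cells. Ly6c2 has a close copy, Ly6c1, and array probes may read both.

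The remaining higher genes were between 1.52-fold and 1.78-fold above naive. Slamf7, a receptor of natural killer and activated T cells, read 8.17 against 7.35 and was 0.83 higher. Eomes read 7.77 against 7.06, a difference of 0.71, and Tbx21, which encodes T-bet, read 7.98 against 7.37, a difference of 0.62. Both are T-box factors that drive memory and effector genes, including interferon-gamma. Xcl1, the chemokine lymphotactin that attracts cross-presenting dendritic cells, read 8.18 against 7.58 and was 0.60 higher. Cxcr5, the receptor that leads lymphocytes into B cell follicles, read 7.76 against 7.15, also a difference of 0.60. Adh6b, an alcohol dehydrogenase gene, read 7.79 against 6.96. These genes were dim on the naive array, and their naive values lay between 6.96 and 7.58 apart from Ccl5 and Ly6c2.

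All 9 of these protein-coding genes read still higher on the CXCR3+ innate array, so that CXCR3- innate cells stood between naive and CXCR3+ innate cells. Their median was 0.71 above naive in CXCR3- innate cells and 1.31 above naive in CXCR3+ innate cells. Adh6b was nearly level between both innate arrays (7.79 and 7.80), whereas Ly6c2 and Ccl5 each stood more than 1 log2 unit apart. The same naive array enters both differences. Against naive, the CXCR3+ innate array had 59 higher genes (0.579%) and 84 lower ones (0.824%).

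**Figure D1:**
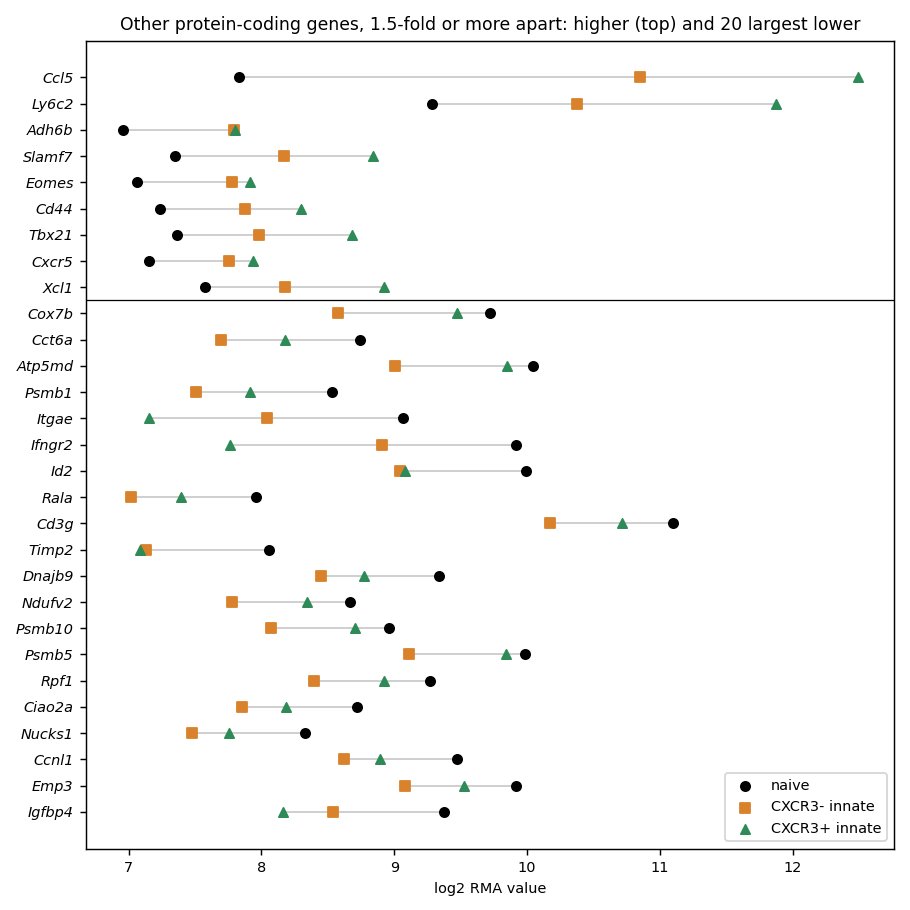
Log2 RMA values of the most different protein-coding genes on the 3 arrays, with 1 point for each array and one line of points for each gene (the 9 higher genes and the 20 largest of the lower ones). Ccl5 spans 7.83 on the naive array to 12.49 on the CXCR3+ innate array with CXCR3- innate cells at 10.85 between them, whereas most of the lower genes, such as Cox7b at 8.58, have their lowest point in CXCR3- innate cells.

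Chemokines were the list with the largest median above naive. Of 7 measured members, Ccl5 and Xcl1 (28.6%) were higher and 0 were lower, with a median difference of 0.29 against 0.00 over all genes. Over all genes 0.0981% were higher and 1.76% lower, the shares to set beside the counts of this and the following lists. Ccl3 and Ccl4, the inflammatory chemokines of activated T cells, stood at 7.48 against 7.02 and at 8.37 against 8.07, differences of 0.47 and 0.29 that stayed short of the limit. Of 9 natural killer receptor genes, only Slamf7 was higher, and the median was 0.22. Klrc1, which encodes the receptor NKG2A, read 7.69 against 7.12 and was just short of the limit with a difference of 0.57. Its partner chain Klrd1 had the opposite sign, 9.29 against 9.79.

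Killing genes did not stand apart from naive cells. None of the 22 measured cytotoxic granule and killing genes was 1.5-fold higher or lower, and their median was -0.03. Gzmb, the serine protease granzyme B, read 6.90 against 6.88, and Prf1, the pore-forming perforin, read 9.28 against 9.39. Gzmk had the value 7.48 on all 3 arrays. Ctsc, the protease that activates granzymes, was the farthest from naive in the list with 8.08 against 8.66, a difference of -0.57. Of 12 memory-phenotype surface antigens, Ly6c2 and Cd44, itself a gene used for the sort, were higher and the median was 0.00. Il2rb, the receptor chain through which interleukin-15 acts, read 9.86 against 9.85 in naive cells, while the CXCR3+ innate array read 10.85.

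Among 15 effector and memory transcription factors, Eomes and Tbx21 were higher and Id2 was lower. Id2, an inhibitor of E-protein transcription factors that effector CD8 T cells use, read 9.04 against 9.99, a difference of -0.95, and the CXCR3+ innate array read 9.08. Bhlhe40, a stress- and activation-induced repressor, read 7.36 against 6.81 and remained short of the limit at 0.56. Gata3, Irf4, Batf, Hopx, Rora and Zbtb32 each had a difference of 0.00.

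Listed genes of the naive state lay mostly below naive, most of them short of the limit. The lists were chosen with earlier results of these data known, so their shift is described here and is not separate support. Of 19 naive T cell genes that are not transcription factors, 18 were below naive, 4 of them (21.1%) by at least 1.5-fold, and the median was -0.44. The list is bright, with a median of 9.07 on the naive and 8.56 on the CXCR3- innate array. In the brightest of 10 bins of other protein-coding genes, 77.9% were below naive, 5.33% were lower and the median was -0.20. Itgae, the alpha chain of the E-cadherin-binding integrin CD103, read 8.04 on the CXCR3- innate array, 9.07 on the naive array and 7.15 on the CXCR3+ innate array. The difference from naive was -1.03. Igfbp4, an insulin-like growth factor binding protein, read 8.54 against 9.37, a difference of -0.83. Npc2, a lysosomal cholesterol carrier, read 8.46 against 9.27, and Als2cl, a gene related to the guanine exchange factor alsin, read 7.97 against 8.61. The egress receptor S1pr1 (-0.53), the homing receptor Ccr7 (-0.44) and the interleukin-7 receptor chain Il7r (-0.35) stayed short of the limit.

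Of 16 transcription factors of the naive state, Lef1 was lower and none was higher, with 13 below naive and a median of -0.17. The list is bright, with a median naive value of 9.48. Among the brightest of 10 bins of other protein-coding genes, 77.9% were below naive, 5.33% were lower and the median was -0.20. By these values the list was not set apart from equally bright genes. Lef1, a partner of beta-catenin that keeps T cells in an undifferentiated state, read 10.30 against 11.01, a difference of -0.72, and 10.25 in CXCR3+ innate cells. Klf2, which maintains quiescence and homing receptors, was 9.49 in naive cells and had a difference of -0.48. Myb pointed the other way, with 8.56 against 8.04 and 8.06 in CXCR3+ innate cells. Its 2 probe sets were averaged, and the brighter one alone gave 1.04, which is past the limit.

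T cell receptor genes lay mostly below naive. Of 23 measured genes of the receptor complex and its proximal signalling, 20 were below naive and 3 of them were at least 1.5-fold lower, with a median of -0.30 in CXCR3- innate cells and of -0.27 in CXCR3+ innate cells. Genes of this list are bright, with a median naive value of 9.38, and in the brightest of 10 bins of other protein-coding genes 77.9% were below naive, 5.33% were lower and the median was -0.20. Quantile normalization took the list's median to -0.16. Cd3g, a chain of the CD3 complex, read 10.17 against 11.10, a difference of -0.93, with 10.72 on the CXCR3+ innate array. Cd8a was described above. Vav1, the exchange factor that links the receptor to the cytoskeleton, read 8.40 against 9.02. Cd3d (-0.52) and Cd3e (-0.30) were below naive without reaching the limit. None of 26 genes that brake receptor signalling and none of 21 costimulatory and inhibitory receptors was 1.5-fold apart.

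Cytokine receptors gave single genes rather than a shift of a list. Ifngr2, the signalling chain of the interferon-gamma receptor, read 8.91 in CXCR3- innate cells, 9.92 in naive cells and 7.76 in CXCR3+ innate cells, a difference of -1.01 from naive, or 2.01-fold. The ligand-binding chain Ifngr1 read 10.91 on both the CXCR3- innate and the naive array. Of 21 interferon receptor and interferon-stimulated genes, Ifngr2 and Gbp4, an interferon-induced guanylate-binding GTPase, were lower, and the median was -0.06. Gbp4 read 6.67 against 7.30. Of 24 interleukin receptor and JAK-STAT genes, Il21r was lower with 9.18 against 9.79, and the median was -0.11. Jun, a subunit of the AP-1 factor, was the single lower gene of 22 immediate early factors and read 9.33 against 9.94.

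Small RNA genes made up a large part of the lower genes. Of 213 small RNA genes, 34 (15.96%) were lower and 0 were higher, against 1.76% of all genes. The class was not uniform. None of its 140 microRNA genes was 1.5-fold apart in either direction: 90 were above naive, 22 below, and their differences ran from -0.37 to 0.53 with a median of 0.06. The other 73 small RNAs held all 34 lower genes, which is 46.6% of them, and their median was -0.54. Of the 73, 59 were below naive and 56 had their lowest value on the CXCR3- innate array. On the CXCR3+ innate array the same 73 genes had a median difference from naive of 0.00, with 2 higher and 4 lower.

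**Figure D2:**
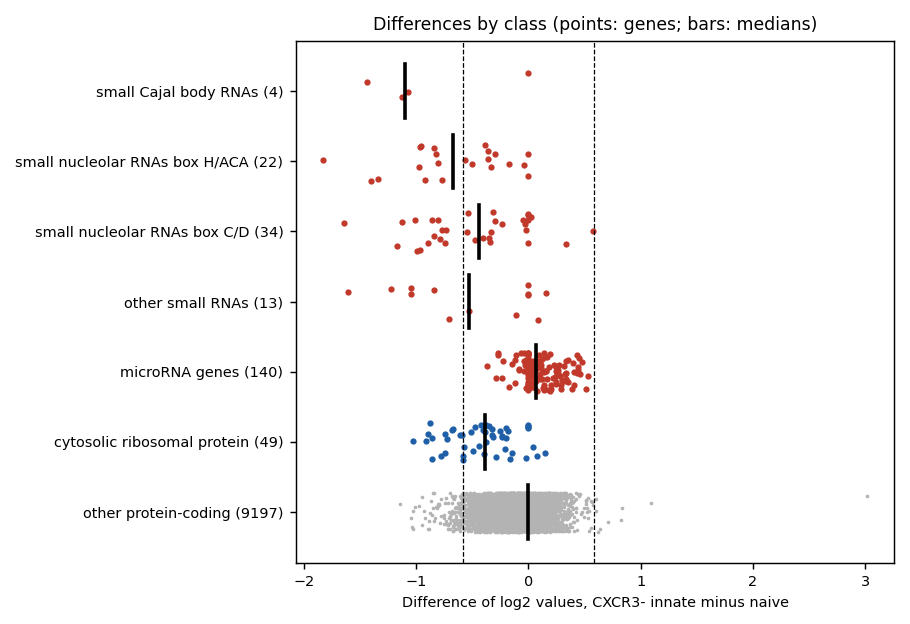
Differences in log2 RMA value between CXCR3- innate and naive cells for each gene, grouped by RNA class, with lines at the 1.5-fold limit. Small nucleolar and small Cajal body RNAs and ribosomal protein genes lie mostly below 0, with medians of -0.67 (box H/ACA), -0.44 (box C/D) and -0.39 (ribosomal proteins), whereas microRNA genes stay between -0.37 and 0.53.

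Box H/ACA small nucleolar RNAs, which guide the change of uridine to pseudouridine in ribosomal RNA, were lower in 11 of 22 cases, with a median of -0.67. None was above naive. Snora16a was the farthest from naive of all 10191 genes in the lower direction: it read 9.63 in CXCR3- innate cells, 11.46 in naive cells and 10.39 in CXCR3+ innate cells, a difference of -1.83 or 3.55-fold. Snora69 read 9.25 against 10.65, with 10.33 on the CXCR3+ innate array, and Snora34 read 7.69 against 9.03, with 8.66. In all 3, the CXCR3- innate array held the lowest value.

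Box C/D small nucleolar RNAs, which guide methylation of the ribose in ribosomal RNA, were lower in 14 of 34 cases, with a median of -0.44. Snord49b read 10.30 against 11.95 in naive cells, a difference of -1.65, and 11.45 in CXCR3+ innate cells. Snord16a read 8.15 against 9.32, a difference of -1.17. Others of the kind were level. Snord8 read 11.73 against 11.71, and Snord118, the U8 RNA needed for processing of the large subunit RNA, read 8.55 on every array. Snord13, which acts on the small subunit RNA, had the largest difference in the other direction of the class, 7.13 against 6.55, and missed the limit at 0.58. Several small nucleolar RNAs exist in near-identical copies, so array signals of single members are uncertain.

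Small Cajal body RNAs, which guide the modification of spliceosomal RNAs, were lower in 3 of 4 cases, namely Scarna6, Scarna17 and Scarna2. Scarna6 read 8.47 against 9.91 with 9.41 in CXCR3+ innate cells, a difference of -1.44. Scarna8 had the same value of 8.11 on all arrays. Of 13 other small RNAs, 6 were lower. Terc, the RNA template of telomerase, which shares the H/ACA fold, read 10.30 against 11.52, and 11.15 in CXCR3+ innate cells, a difference of -1.23. Rnu12, the U12 RNA of the minor spliceosome, read 9.20 against 10.81, and 10.59 in CXCR3+ innate cells. Rnu11, its partner in the same spliceosome, read 11.38 on both arrays. Rnu3a, a U3 RNA of ribosomal RNA processing, and Rny3, a Y RNA, had differences of -1.05 each. Rn7sk, the abundant RNA that holds back transcription elongation, read 13.63 against 13.54 and was level.

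All 34 lower small RNAs had their lowest value on the CXCR3- innate array. Their median difference from naive was -0.96 there and -0.22 on the CXCR3+ innate array. With 1 array a population, a difference between these preparations and a difference between the populations cannot be told apart.

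Most small nucleolar RNAs are cut from introns of host genes, so the host transcripts give a second reading. Of 60 small nucleolar and Cajal body RNAs with a value, 42 lay inside 1 host gene that was also measured, by the RefSeq annotation of GRCm38.p6. Hosts were assigned by position on the chromosome alone, with no check of strand or introns. These 42 had a median difference of -0.52, and their 34 distinct hosts one of -0.31. Of the 18 lower ones, in 17 distinct hosts, 16 had a host below naive and 4 had a host that was itself at least 1.5-fold lower. These 18 were chosen by their own difference, so their sizes are not set against those of their hosts.

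The 4 pairs in which both were lower were Snora15 in Cct6a (-0.97 and -1.04), Snord73b in Rps3a1 (-0.89 and -0.86), Snora33 in Rps12 (-0.84 and -0.59) and Snord22 in Snhg1 (-0.78 and -0.90). Other pairs were close without both passing the limit, such as Snora75 (-0.56) and its host Ncl (-0.52), and in some the RNA and the host were far apart. Snhg12, a noncoding host, read 6.89 against 7.20, a difference of -0.31, but the 4 RNAs it holds spread widely: Snora16a at -1.83, Snora44 at -0.38, Snord99 at -0.32 and Snora61 at 0.00. The host 2410006H16Rik, at -0.53, holds Snord49b at -1.65, Snord49a at -1.13 and Snord65 at -0.55. Rpl39, the host of Snora69, and Atg16l1, the host of Scarna6, each had a difference of 0.00, at values of 7.36 and 7.56 on both arrays. These hosts and Snhg12 were dim, below the gene median of 7.65 on the naive array. Readings so dim, or exactly equal, cannot show that the host itself was unchanged. RNAs of 1 host are not independent of each other, since they leave the same primary transcript.

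**Figure D3:**
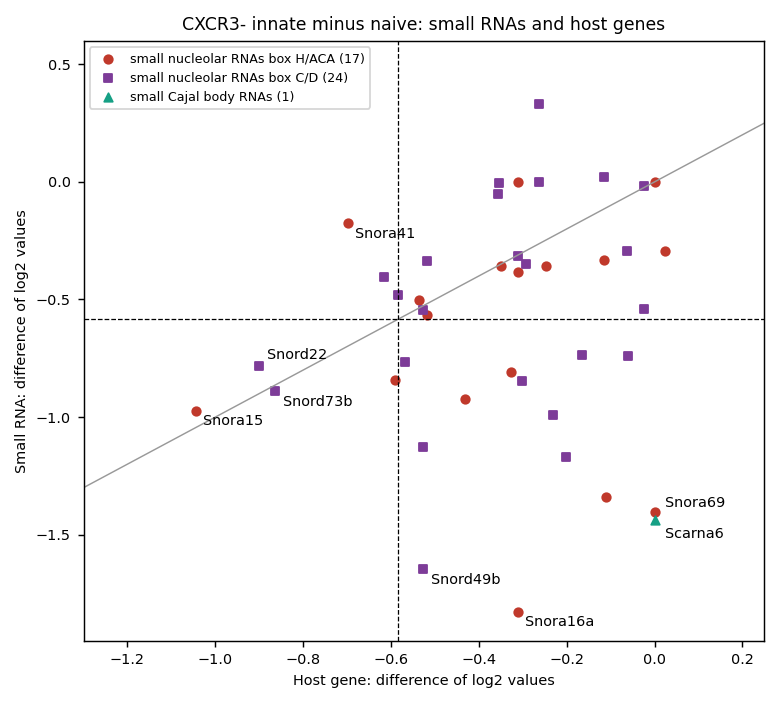
Difference from naive (log2) of each small nucleolar or Cajal body RNA on the vertical axis against that of the measured gene within whose annotated bounds it lies on the horizontal axis, 1 point for each of 42 RNAs. Most points lie below 0 on both axes, and Snora16a (-1.83) with its host Snhg12 (-0.31) lies far below the line of equal difference. Snhg12 was dim, at 6.89 on the CXCR3- innate and 7.20 on the naive array.

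Genes for proteins that work with these RNAs lay below naive by less, mostly short of the limit. Of 16 genes for proteins of small nucleolar and Cajal ribonucleoproteins, Nop58, a core protein of the C/D particle, was lower with 7.46 against 8.08, and the median was -0.26. Ncl, which encodes nucleolin, read 9.11 against 9.63, a difference of -0.52, and the RNAs that lie inside it, Snora75 and Snord82, had differences of -0.56 and -0.34. Among 20 listed host genes, 5 (25%) were lower, against 1.76% of all genes. They were the noncoding hosts Zfas1 (-1.05), Epb41l4aos (-1.02) and Snhg1 (-0.90), the helicase gene Eif4a2 (-0.75) and the ribosomal protein gene Rps13 (-0.73). Noncoding RNAs without that role were also in the lower set, namely Malat1, Chaserr and Tug1. Malat1, an abundant nuclear RNA, read 9.42 in both innate populations against 10.06, but its 2 probe sets disagreed in size at -1.06 and -0.24.

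Of the 4 classes of genes, cytosolic ribosomal protein genes had the largest share of lower ones. The small RNA class had a larger share, 46.6%, once its microRNA genes were left out. Of 49 ribosomal protein genes measured, 14 (28.6%) were lower, against 1.76% of all genes, 0 were higher, and 43 were below naive, with a median of -0.39. The class is bright, with a median naive value of 9.49. Of the brightest of 10 bins of other protein-coding genes, 5.33% were lower, 77.9% were below naive and the median was -0.20. The CXCR3- innate array held the lowest of the 3 values in 40 of 49. The CXCR3+ innate array was close to naive: its median difference was -0.04, and 0 of the 49 genes were 1.5-fold lower or higher there. The large subunit had 7 lower genes of 30 and a median of -0.36, and the small subunit had 7 of 19 and a median of -0.42, so that both subunits were involved.

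Rps19, a small subunit protein needed for maturation of the small subunit RNA, had the largest difference. It read 9.48 in CXCR3- innate cells, 10.51 in naive cells and 10.24 in CXCR3+ innate cells, which is -1.02, and both of its probe sets gave the same difference. Rpl14, of the large subunit, read 8.34 against 9.26 with 9.22 in CXCR3+ innate cells, a difference of -0.92. Rpl7 read 8.59 against 9.49, and Rpl9 read 8.39 against 9.27. Rps3a1, Rpl8, Rpl35 and Rps26 were lower, with differences of -0.86, -0.86, -0.78 and -0.75. At the other end, Rpl11 (0.15), Rps23 (0.07) and Rps18 (0.04) were above naive, and Rpl3 stood at -0.02. Rps12 was lower only just, at -0.59, with 2 of its 8 probe sets past the limit. Ribosomal protein genes have many processed pseudogenes, among them Rpl31-ps20, Rpl6l and Rpl34-ps2 in the lower set, and probes may not separate gene from copy.

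Messenger RNAs of ribosomal proteins are known to begin with a run of pyrimidines, the terminal oligopyrimidine tract, through which their translation is regulated together. Of 12 lower members with a window, only 6 carried a run as defined below, so the feature was not shared by all of them. Windows around the start of some lower members are shown, most of them with a run, and they do not represent all lower members. Each runs from 20 bases before the annotated start to 15 bases from the start on, on the strand of the gene, as given by RefSeq for GRCm38.p6. Capitals mark a run of at least 8 bases that are all C or T and that reaches within 5 bases of the start.
Rpl14, chr9:120571497-120571531, plus strand: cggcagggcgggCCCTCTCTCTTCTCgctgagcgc
Rpl35, chr2:39005117-39005151, minus strand: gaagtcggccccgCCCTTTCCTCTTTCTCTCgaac
Rps26, chr10:128626492-128626526, minus strand: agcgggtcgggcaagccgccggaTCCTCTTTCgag
Fau, chr19:6057927-6057961, plus strand: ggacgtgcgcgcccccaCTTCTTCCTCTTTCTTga
Rpl15, chr14:18270972-18271006, minus strand: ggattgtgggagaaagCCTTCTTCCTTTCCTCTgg
Rps19, chr7:24884572-24884606, plus strand: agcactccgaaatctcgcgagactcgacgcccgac

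The runs are 14 bases long in Rpl14, 18 in Rpl35, 9 in Rps26, 16 in Fau and 17 in Rpl15. Rps19, the most different gene of the class, has no such run in this window, which is 1 of its 3 annotated starts, nor in the others. Only the gene strand was searched. A run was present in 17 of 40 ribosomal protein genes with a window (42.5%), against 11.8% of 7490 other protein-coding genes with a value and 9.72% of all windows. Within the class it did not mark the lower genes: 6 of 12 lower genes and 11 of 28 others carried one. Among 99 other protein-coding genes that were lower, 11 carried one (11.1%). A run near an annotated start is a feature of the letters and does not show where transcription began in these cells.

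Other protein-coding genes were lower in 117 of 9197 cases (1.27%), and the median of the whole class was 0.00. Of the 117, 96 had their lowest value on the CXCR3- innate array, with a median difference of -0.67 there and of -0.33 on the CXCR3+ innate array. In 19 the CXCR3- innate value lay between the other arrays, with medians of -0.67 and -0.86, and in Dnajc9 and Cdkn1b both innate arrays were equal. Itgae, Ifngr2, Timp2, Igfbp4, Lef1, Als2cl and Gbp4 belonged to those 19. The lower genes of the proteasome, respiration and protein folding described below were among the 96.

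Lower genes were more frequent among genes of high signal. When the 9197 genes were ranked by their mean over both arrays and cut into 10 equal bins, the median difference was 0.00 in the 7 dimmest bins, -0.09 in the second brightest and -0.20 in the brightest, which held 49 of the 117 lower genes (5.33% of that bin). In the brightest bin the CXCR3+ innate array had a median of -0.11. Genes below naive made up 65.4% of the second brightest bin and 77.9% of the brightest, against 3480 of all 9197 genes. After cyclic loess, a normalization aimed at trends with signal, the brightest bin still had a median of -0.13 and 33 lower genes. Under cyclic loess the median of oxidative phosphorylation subunits went from -0.22 to -0.19 and that of chaperonin subunits from -0.40 to -0.35. The median of translation factors went from -0.22 to -0.20 and that of splicing factors from -0.30 to -0.26. Because part of the trend remained, these small moves cannot show whether the lists stood apart from equally bright genes. Quantile normalization moved the same medians further, to -0.12, -0.28, -0.16 and -0.21 in that order.

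**Figure D4:**
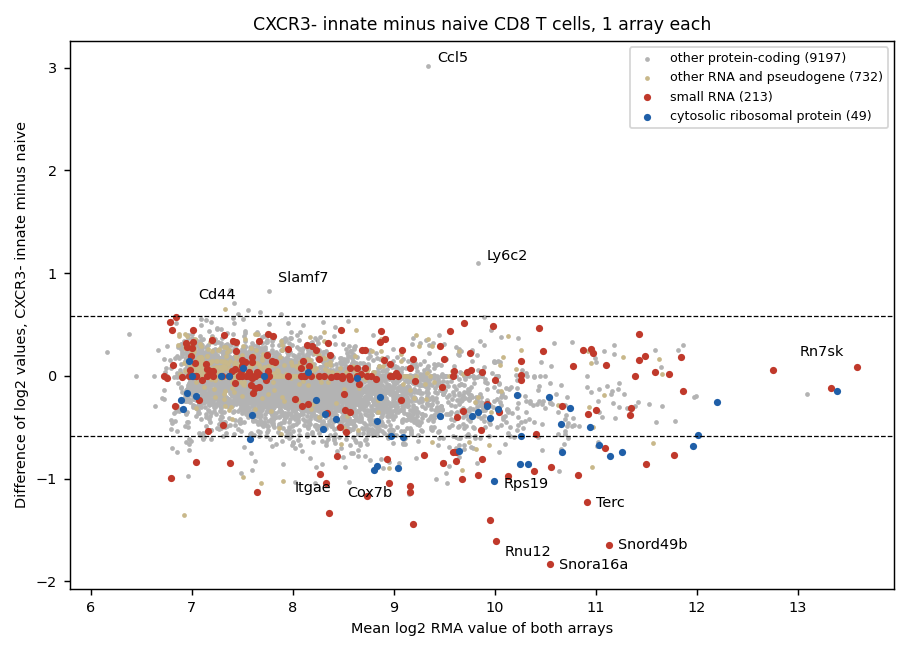
Difference between CXCR3- innate and naive cells (log2) against the mean log2 RMA value of both arrays, 1 point for each gene, coloured by class, with lines at the 1.5-fold limit. Ccl5 stands alone at 3.02, the small RNAs reach down to -1.83, and the lower protein-coding genes gather towards high signal.

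Respiratory chain genes lay below naive in most cases, with few single genes past the limit. Of 56 oxidative phosphorylation subunits, 5 (8.93%) were lower, against 1.27% of all other protein-coding genes, and 0 were higher. Their median was -0.22, against 0.00 on the CXCR3+ innate array. Quantile normalization brought that median to -0.12. Cox7b, a subunit of cytochrome c oxidase, had the largest difference below naive of the other protein-coding genes and read 8.58 against 9.72, and 9.47 in CXCR3+ innate cells, a difference of -1.15 or 2.21-fold. Atp5md, a small subunit of the ATP synthase, had a difference of -1.04 from the naive value of 10.04, with 9.85 in CXCR3+ innate cells. Ndufv2, of complex I, read 7.78 against 8.67, and Ndufb9 and Uqcrh were just past the limit at -0.61 and -0.59. Of 31 mitochondrial ribosomal protein genes only Mrpl24 was lower, with 7.77 against 8.57, and the median was -0.03.

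The chaperonin that folds actin and tubulin had all 8 measured subunits below naive, 2 of them by at least 1.5-fold. The median was -0.40, against -0.05 on the CXCR3+ innate array. Its median naive value was 8.64. In the second brightest bin of other protein-coding genes, 65.4% were below naive, 2.83% were lower and the median was -0.09. Cct6a read 7.70 against 8.74, and 8.18 in CXCR3+ innate cells, a difference of -1.04, and Cct2 read 9.36 against 10.03. Of 20 heat shock proteins and cochaperones, Calr, which encodes the calcium-binding chaperone calreticulin, and Hspa9, the mitochondrial chaperone mortalin, were lower at -0.65 and -0.61, and the median was -0.20. The lower share of that list was 10%, against 1.27% of other protein-coding genes.

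Of 40 proteasome subunits, 4 (10%) were lower, all in the catalytic core, against 1.27% of other protein-coding genes. The median of the 40 was -0.10. Psmb1 read 7.50 against 8.53, and 7.92 in CXCR3+ innate cells, a difference of -1.03. Psmb5, which carries the chymotrypsin-like site, read 9.11 against 9.98. Psmb10, an interferon-induced subunit of the immunoproteasome, read 8.07 against 8.96, and the alpha subunit Psma1 read 7.20 against 7.96. All 10 core beta subunits were below naive, with a median of -0.28, against 3480 below naive among all 9197 other protein-coding genes. None of the 5 ATPases and none of the 13 other regulatory subunits was 1.5-fold apart, and the medians were -0.18 and -0.07.

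Translation and splicing genes were below naive in a similar, shallow way. Lower genes made up 8.51% of the translation list and 8% of the splicing list, against 1.27% of other protein-coding genes. Splicing genes had medians of 8.79 on the naive and 8.55 on the CXCR3- innate array, within the second brightest bin of other protein-coding genes. In that bin, 65.4% were below naive, 2.83% were lower and the median was -0.09. Translation genes had medians of 8.37 and 8.22, on both sides of the lower edge of that bin. In the next dimmer bin, 52.2% were below naive and 1.197% were lower. In the brightest bin, which starts at 8.80, 77.9% were below naive. Of 47 translation initiation and elongation factors, 4 were lower: Eif4a2 (-0.75), a helicase that unwinds messenger RNA, Eef1b2 (-0.70), which recharges the elongation factor, and the Eif3 subunits Eif3m (-0.69) and Eif3e (-0.62). All 11 Eif3 subunits were below naive with a median of -0.39, against -0.05 on the CXCR3+ innate array. Of 50 splicing factors and nuclear RNA-binding proteins, Srsf5, Hnrnpc, Snrpd3 and Srsf2 were lower, at -0.79, -0.61, -0.60 and -0.59. The 8 Srsf genes and the 11 Hnrnp genes were all below naive, with medians of -0.36 and -0.41. Here the CXCR3+ innate array was also below naive, at -0.23 and -0.27.

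**Figure D5:**
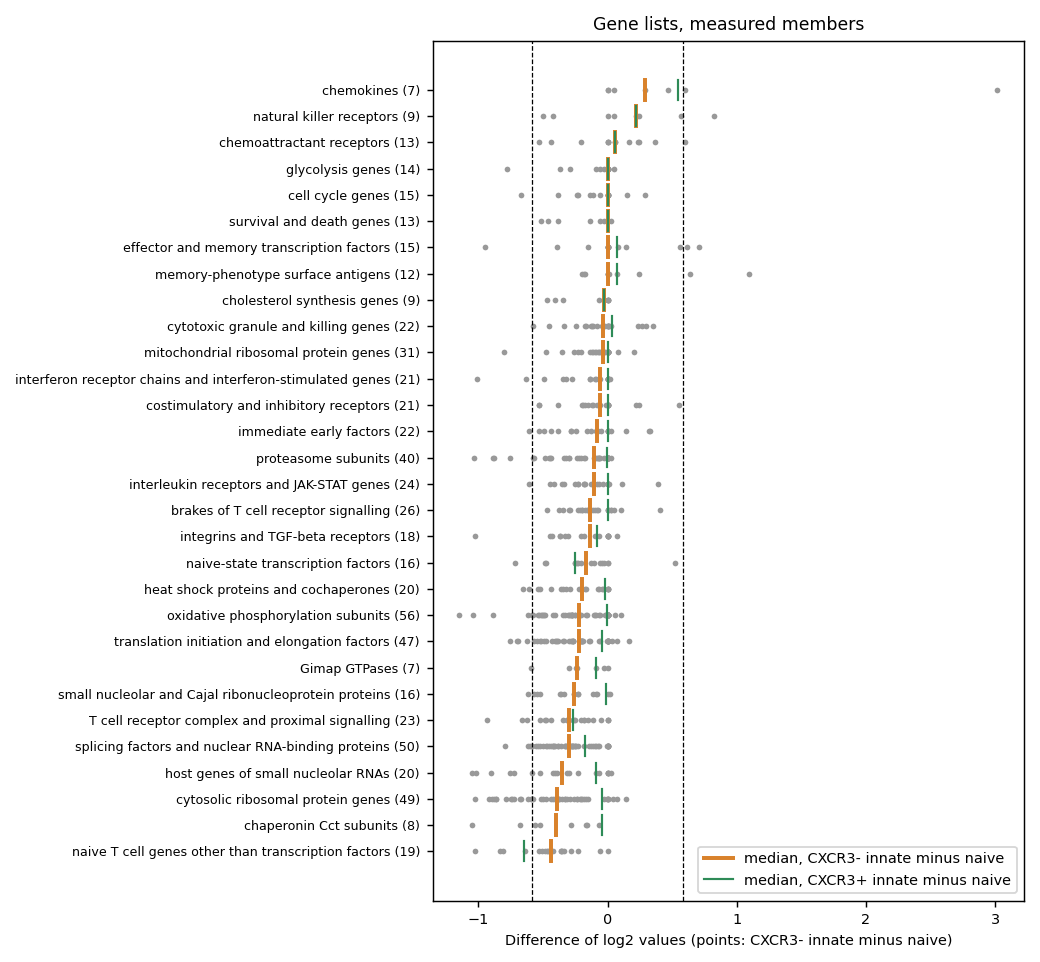
Differences from naive (log2) in each protein-coding gene list, with 1 grey point for each measured member on the CXCR3- innate array, a thick bar for their median, and a thin bar for the median on the CXCR3+ innate array, which shares the naive array. In CXCR3- innate cells chemokines have the highest median (0.29) and naive T cell genes the lowest (-0.44), and ribosomal protein genes stand at -0.39 there and at -0.04 on the CXCR3+ innate array. The lists were chosen with earlier results of these data known.

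Several lists held no gene or a single gene past the limit. None of 13 survival and death genes and none of 9 cholesterol synthesis genes was 1.5-fold apart. Ccnd2, a D-type cyclin, was the single lower gene of 15 cell cycle genes, at -0.67. Slc16a1, a lactate transporter, was the single lower gene of 14 in glycolysis, at -0.78. Gimap6, a GTPase of lymphocyte survival, was the single lower gene of 7 of its family, at -0.59. The median of that family, -0.24, went to -0.02 under quantile normalization. Of 13 chemoattractant receptors, Cxcr5 was higher and none was lower, and of 18 integrins and TGF-beta receptors only Itgae was lower. The olfactory and vomeronasal receptors, which T cells are not expected to use, gave 1 lower gene of 542 and a median of 0.00.

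Lower genes with no place in these lists were the majority, since 41 of the 117 were in a list. Rala, a small GTPase of vesicle traffic, read 7.02 against 7.96, and 7.39 in CXCR3+ innate cells. Timp2, an inhibitor of matrix metalloproteinases, read 7.13 against 8.05, and 7.08 in CXCR3+ innate cells. Dnajb9, a cochaperone of the endoplasmic reticulum stress response, read 8.45 against 9.34. Rpf1, a factor of large ribosomal subunit assembly, read 8.40 against 9.27, a difference of -0.87. Ciao2a, of cytosolic iron-sulfur assembly, read 7.86 against 8.72, and Ccnl1, a cyclin linked to splicing, read 8.62 against 9.47. Nucks1, a chromatin protein, and Emp3, a membrane protein, had differences of -0.85 and -0.84.

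The limit cut through a continuum. Just past it lay Xcl1, Cxcr5 and Tbx21, at 0.60, 0.60 and 0.62, and Srsf2, Uqcrh and Tug1, each at -0.59. Just short of it lay Snord13, Gm5936 and Klrc1, at 0.58, 0.57 and 0.57, and Cited2, Map1lc3b and Hnrnpab, each at -0.58. At 2-fold, 2 genes were higher, Ccl5 and Ly6c2, and 24 were lower, of which 14 were small RNAs, 6 other protein-coding genes and 1 a ribosomal protein gene.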

How the data were processed

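RNA of 3 sorted CD8 T cell populations was hybridised to 1 Affymetrix array each. The authors deposited log2 expression values. The submitters' processing notes name RMA (background correction, quantile normalization and probe summarisation) and Affymetrix Expression Console, whose version is not given in the sources used here. The table held 12417 probe sets. The 10576 with 1 gene symbol were averaged per gene on the log2 scale, giving 10191 genes, of which 273 had several probe sets; 1108 probe sets with several symbols and 733 with none were not used to name genes. RefSeq (GRCm38.p6) gave classes for 10181 genes, host genes and start windows. The number of arrays limits the precision.

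Higher and lower mean at least 1.5-fold apart between CXCR3- innate and naive, with no filter on level. Named genes are the sort genes, the 20 most different other protein-coding genes a direction, whose higher value is at or above the median of its array, the 8 most different small RNA and ribosomal protein genes, all lower or higher members of a list and otherwise up to 4, and the 3 genes on each side of the limit. Ifngr1, Gzmk, Gzmb, Prf1, Il2rb, Cd3d, Cd3e, S1pr1, Ccr7, Il7r, Ccl4, Klrd1, the genes level with naive, the less different small RNAs and ribosomal protein genes and some hosts were named after their values were seen. Members and lists were chosen with earlier results of these data known. Alternatives were other limits, level filters, quantile normalization, cyclic loess, centrings, an offset of 16, and other ways to combine probe sets. Python 3.11.15, numpy 2.4.6, pandas 2.3.3, matplotlib 3.10.9, R 4.3.3 and limma 3.58.1 were used. The code of the rule was run on simulated data with assumed noise and with differences far from the limit. That run checks the code only and does not measure error on single arrays or near the limit.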

Additional observations from a re-analysis of the deposited data

Results flagged for a closer look

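Probe sets that name no single gene were left out of the comparison. Of 1108 probe sets with several gene symbols, 48 were at least 1.5-fold lower in CXCR3- innate than in naive cells and 1 was higher. Of 733 with no symbol, 21 were lower and 3 were higher. Both kinds were set apart because they show differences in data that the gene counts above do not use, and they have no control samples of their own.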

How the results depend on the processing

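The lower small RNAs depended least on the processing: 34 were lower as reported, and between 30 and 35 under every alternative other than a wider limit. Other protein-coding genes depended on it most. Quantile normalization gave 16 higher and 52 lower other protein-coding genes, against 9 and 117 as reported, and 7 lower ribosomal protein genes against 14. Centring on bright other protein-coding genes gave 22 higher and 62 lower. A filter at the 75th percentile of level left 4 higher. At 2-fold there were 2 higher and 6 lower other protein-coding genes, 14 lower small RNAs and 1 lower ribosomal protein gene, and at 3-fold 1, 0, 3 and 0. Quantile normalization was applied to values already made with RMA. Of 219 named genes, many had no call as reported and so could lose none. Calls were lost by 32 under quantile normalization, 20 under bright centring, 12 under cyclic loess, 12 under median centring and 11 with the offset. Among them were Cd8a, Vav1 and Lef1 under quantile normalization and Tbx21, Cxcr5 and Xcl1 with the offset. Named genes without a call gained one in 8 cases under quantile normalization and 10 under bright centring. The same held for 5 under median centring, 1 under cyclic loess and 1 with the probe set of highest mean. No call turned to the other direction. Quantile normalization brought several list medians towards 0: T cell receptor genes from -0.30 to -0.16, oxidative phosphorylation from -0.22 to -0.12, heat shock proteins from -0.20 to -0.11, naive-state transcription factors from -0.17 to -0.03, and Gimap GTPases (-0.24), brakes of receptor signalling (-0.13), integrins (-0.14) and interleukin receptors (-0.11) to between -0.02 and 0.00. Bright centring also took the median of proteasome subunits from -0.10 to -0.02. The medians of the cytotoxic, interferon, costimulatory, cholesterol and mitochondrial ribosomal lists, all near 0.00, turned positive under bright centring. No paired analysis was possible because each population has 1 array.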
